A study of Danio rerio with 36 samples.

Results

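The AP-1 genes described here are fosab, fosb, fosl1a and fosl2 (Fos class), jun, junba and junbb (Jun class), and atf3 (Atf class). They were chosen by symbol, and all 8 were counted in each of the 18 RNA-seq libraries, out of 14781 gene symbols. AP-1 is a pair of basic leucine zipper proteins that binds short DNA sites near its target genes. Fos proteins bind DNA only as partners of Jun proteins, whereas Jun proteins can also pair among themselves, and Atf3 joins Jun proteins or itself. In mammals many of these genes are immediate early genes, transcribed within minutes of growth factors, wounding or stress, and AP-1 motifs are common in enhancers that open after injury.

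The libraries came from zebrafish caudal fins of the outbred Ekkwill (EK) strain, an appendage that regrows after amputation, aged 3 to 12 months per the extraction protocol and 4 to 12 months per the growth protocol. Batch 1 held wild-type whole fins, with 2 uninjured libraries (0 dpa, days post amputation) and 2 at 4 dpa. Batch 2 had 3 wild-type whole-fin libraries labelled 0 dpa and 3 labelled 1 dpa. Batch 3 contained fibroblasts labelled wild type, 2 libraries at 0 dpa and 2 at 4 dpa. It also held 1 whole-fin library each at 0 and 2 dpa of fins without a named deletion, called wild type here, and of LEN deletion fins, which lack an enhancer linked to the leptin gene lepb. Pools were of 15 fish for whole fins and of 75 fish for fibroblasts. Labels of the fibroblast samples name Tg(tph1b:mCherry-NTR;ubi:switch) fish in one protocol and Tg(tph1b:creER;ubi:switch) fish given 4 µM tamoxifen for 12 h from 2 dpa in another. In either case the mark depends on the tph1b promoter, so fibroblasts that do not use it are not represented. For accessibility libraries the protocols describe 2 h at 37 °C with Liberase before the fluorescence sort. The series' design text gives enzymatic dissociation for the RNA samples as well and names whole-fin and fibroblast pools without distinction, so how far handling differed between them is not clear.

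Gene counts ranged from 19427984 to 43871436 per library. Where a group had replicates, these differed by more than counting noise (chi-square per degree of freedom 14.4 to 121). Nothing further on how pools were drawn is stated, so p-values between replicated groups measure the spread between these pools. The 2 dpa comparison had 1 library per genotype and time, and its fit left 1 residual degree of freedom. Its p-values therefore do not measure a spread between replicate pools. The 14 fibroblast markers found in the counts summed to 75605 to 111740.0 TMM-normalised CPM (reads per gene scaled to the size of each library) in sorted fibroblasts and to 6782 to 56739 CPM in whole fins. The 16 epidermal markers summed to 7889 to 47761 CPM in sorted fibroblasts against 56720 to 220485 CPM in whole fins. None was at 0 in any group, so the sorted libraries held some epidermal transcript. Osteoblast markers, 9 in number, summed to 1905 to 2524 CPM in sorted fibroblasts. Whole fins labelled 0 dpa had 134 to 776 CPM of these, and those at 4 dpa up to 15829 CPM. In batch 2 the names given to the deposited data carry the opposite group from the labels. The leptin gene lepb, a gene raised by injury, averaged 39.0 CPM under the 0 dpa label and 0.0202 CPM under the 1 dpa label, whereas batch 1 had 0.303 CPM at 0 dpa and 32.5 CPM at 4 dpa. Groups of batch 2 follow the labels below. Exchanging them would turn the sign of every difference between these groups, though not of every comparison of that difference with batch 1.

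**Figure D1:**
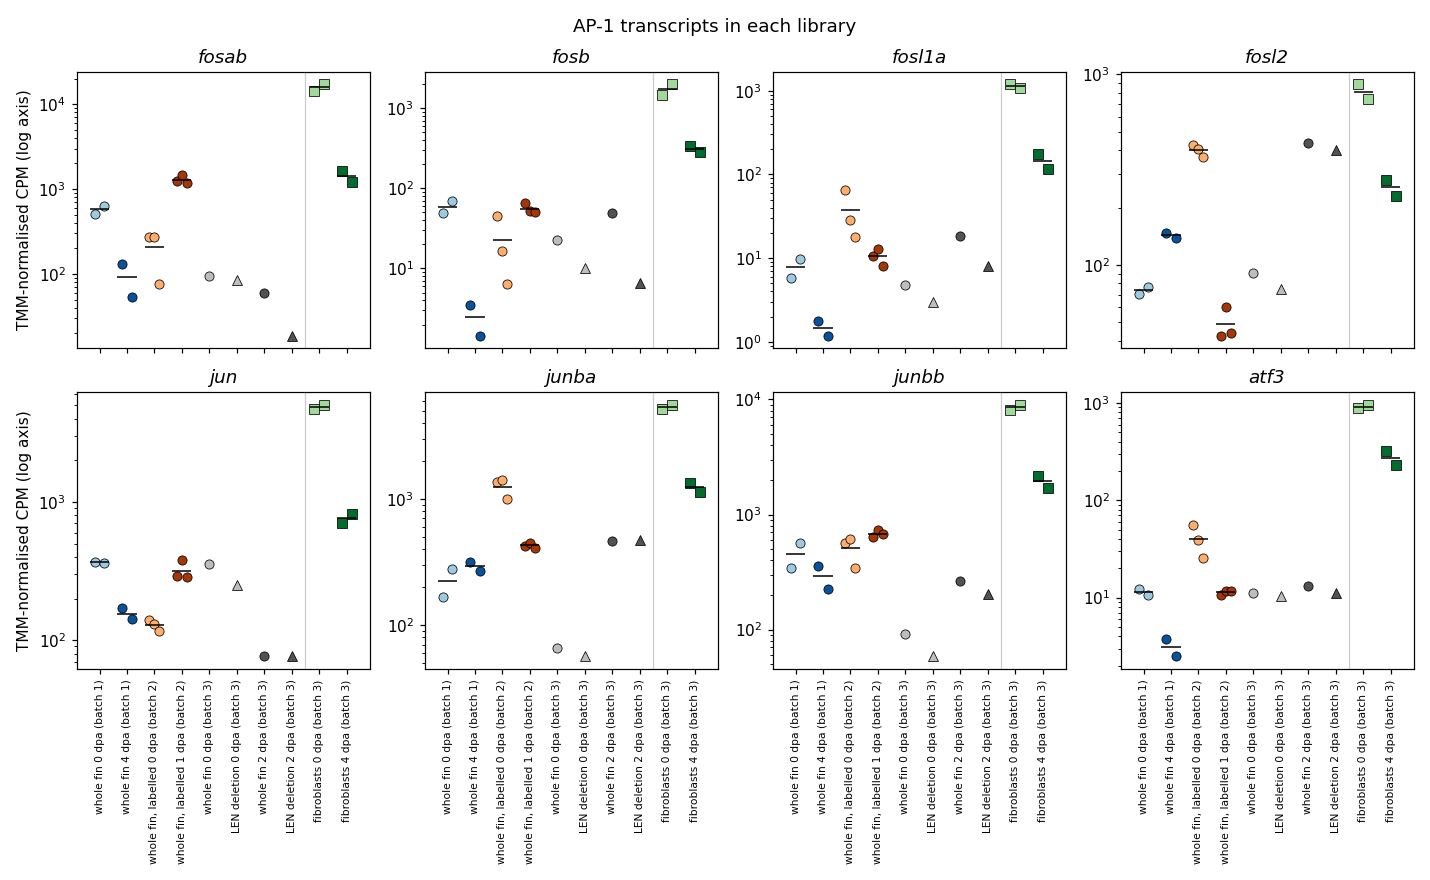
Level of each AP-1 transcript in each library, as TMM-normalised CPM on a log axis, with a bar at the mean of groups with 2 or 3 libraries; triangles are LEN deletion fins and squares sorted fibroblasts. The uninjured fibroblasts lie above all other libraries in every panel, while in whole fins fosl2 and jun move in opposite directions.

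AP-1 genes did not move as a block in whole fins. Of the 8 genes, 1 rose and 5 fell between 0 and 4 dpa in batch 1, where 65.5% of all 11912 genes tested were called by edgeR's quasi-likelihood test (adjusted p under 0.05), 32.5% of them as higher and 33.0% as lower at 4 dpa. At 2 dpa in batch 3, 4 rose and 1 fell, against 62.3% of 11873 genes called, 31.2% higher and 31.1% lower. In batch 2, 2 were higher and 4 lower under the 1 dpa label, against 81.9% of 11851 genes called, 42.0% higher and 39.9% lower. With so many genes called, the number of AP-1 genes called is close to the background in each comparison of whole fins, and the direction and size for each gene carry the description. Directions are relative to TMM scaling: with library size alone 72.7% of the genes called at 4 dpa were higher, against 49.7%, but no AP-1 gene changed direction in these 3 comparisons. Bulk fins do not tell fewer cells of a type from less RNA per cell.

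Among the Fos class, fosab encodes the zebrafish c-Fos, the archetypal immediate early factor. It stood at 513 and 640 CPM in the 0 dpa libraries of batch 1 and at 130 and 53.3 CPM at 4 dpa. The groups did not overlap, and the 4 dpa libraries differed from each other by 2.44-fold. The gene fell by 2.76 on the log2 scale (0.462 SE, adjusted p = 0.00516, edgeR's test as throughout). Without either 0 dpa library the fall was of like size (-2.88 without replicate 1, -2.58 without replicate 2) but was not called (adjusted p = 0.112 and 0.149). Where an arm is left with 1 library, here and below, that library is assumed to vary like those of the other groups. Without replicate 1 at 4 dpa the log2 fold change was -3.52.

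Uninjured levels of fosab also depended on the batch, at 95.3 CPM in the wild-type and 84.0 CPM in the LEN deletion fin of batch 3. At 2 dpa the wild-type fin of that batch had 59.4 CPM and the deletion fin 18.7 CPM. Both lay below the 0 dpa libraries of their batch, but the difference was not called (log2 difference -1.42 ± 0.584 SE, adjusted p = 0.199). It passed narrowly in 1 fit of all 18 libraries (edgeR adjusted p = 0.0498). In batch 2 the libraries labelled 0 dpa had 269, 273 and 77.0 CPM and those labelled 1 dpa 1250, 1466 and 1169 CPM. Every library labelled 1 dpa lay above every other whole-fin library of the series (log2 difference 2.71 ± 0.554 SE, adjusted p = 0.00762).

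The related gene fosb, another immediate early Fos factor, had the largest fall of the set at 4 dpa. Its level went from 49.2 and 68.9 CPM at 0 dpa to 3.47 and 1.45 CPM at 4 dpa, with no overlap (log2 difference -4.69 ± 0.411 SE, adjusted p = 0.000302), the 17th largest fall of the 11912 genes tested. Without replicate 1 at 4 dpa the log2 fold change was -5.43. At 2 dpa fosb split by library, with 49.3 CPM in wild type and 6.53 CPM in the deletion, against 22.6 and 10.1 CPM at 0 dpa. The groups overlapped, and the difference was not called (log2 difference 0.33 ± 0.684 SE, adjusted p = 0.733). The libraries labelled 0 dpa in batch 2 were as uneven, at 45.2, 16.5 and 6.35 CPM, below the 65.4, 51.6 and 50.9 CPM of those labelled 1 dpa. That difference was not called (1.37, SE 0.723, edgeR adjusted p = 0.141), but without replicate 1 of the libraries labelled 0 dpa it was (2.31, adjusted p = 0.0141).

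The Fra-1 gene fosl1a, whose product lacks the strong activation domain of c-Fos in mammals, was at 5.73 and 9.75 CPM at 0 dpa and at 1.75 and 1.18 CPM at 4 dpa, and fell without overlap (log2 difference -2.51 ± 0.309 SE, adjusted p = 0.000136). In batch 3 it rose instead, from 4.71 CPM in wild type and 2.95 CPM in the deletion at 0 dpa to 18.5 and 8.03 CPM at 2 dpa (log2 difference 1.71 ± 0.188 SE, adjusted p = 2.35e-05). In batch 2 the libraries labelled 0 dpa had 65.9, 28.5 and 18.02 CPM and those labelled 1 dpa 10.7, 12.9 and 7.94 CPM. The latter were lower without overlap (log2 difference -1.77 ± 0.576 SE, adjusted p = 0.0375). This call was narrow. It was lost with scaling by library size alone (-1.66, adjusted p = 0.0513), without replicate 2 labelled 0 dpa (-1.94, 0.0711) and without replicate 1 (-1.79, 0.0888), 2 (-1.95, 0.0764) or 3 (-1.62, 0.107) labelled 1 dpa, and without replicate 1 labelled 0 dpa it was -1.13.

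The Fra-2 gene fosl2, a slower Fos-class factor known for its role in bone and matrix in mammals, was the 1 member that rose in batch 1. Its level went from 70.8 and 76.6 CPM at 0 dpa to 147 and 139 CPM at 4 dpa (log2 difference 0.86 ± 0.114 SE, adjusted p = 0.000143). The rise was larger at 2 dpa, from 91.1 CPM in wild type and 74.4 CPM in the deletion to 436 and 404 CPM (log2 difference 2.33 ± 0.107 SE, adjusted p = 3.53e-08). In batch 2 the libraries labelled 0 dpa had 428, 408 and 371 CPM and those labelled 1 dpa 42.6, 60.5 and 43.7 CPM (log2 difference -2.98 ± 0.154 SE, adjusted p = 2.67e-06). In all 3 batches the groups of fosl2 did not overlap, and each of these calls held in every alternative run.

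**Figure D2:**
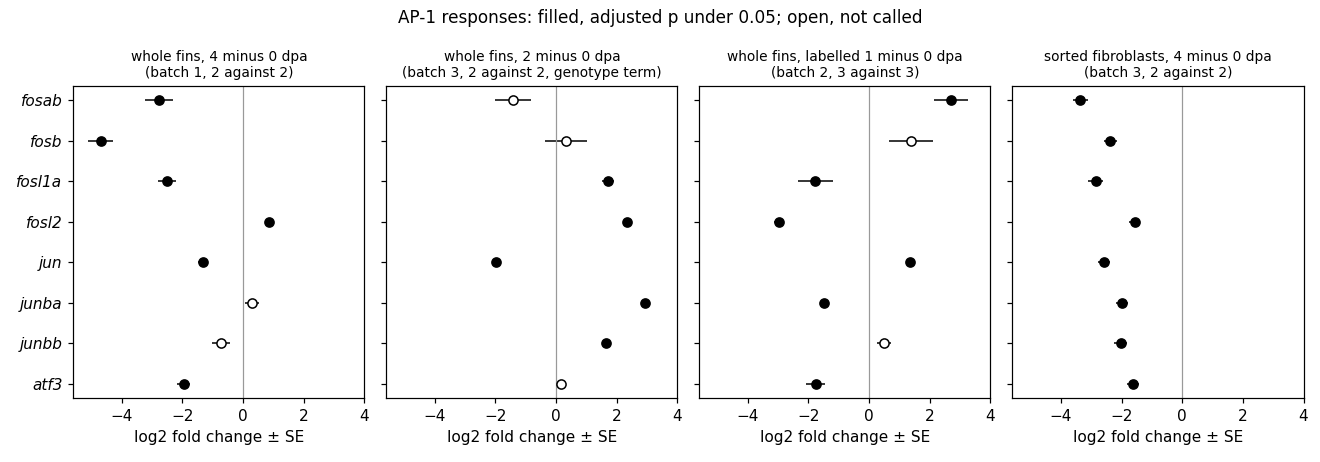
Log2 fold change ± SE of each AP-1 gene in the 3 whole-fin comparisons and in sorted fibroblasts (edgeR); filled points had an adjusted p under 0.05. In whole fins at 4 dpa fosl2 rose (0.86) and fosb fell the most (-4.69), at 2 dpa junba rose the most (2.93), and in fibroblasts all 8 fell.

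In the Jun class, jun encodes c-Jun, the main partner of Fos proteins and a target of Jun kinases in mammals. Its levels were 369 and 364 CPM at 0 dpa and 170 and 141 CPM at 4 dpa. It fell (log2 difference -1.34 ± 0.137 SE, adjusted p = 2.92e-05). At 2 dpa the fall was larger, from 356 CPM in wild type and 252 CPM in the deletion to 76.4 and 77.1 CPM (log2 difference -1.98 ± 0.134 SE, adjusted p = 2.48e-06). The libraries labelled 0 dpa in batch 2 had 140, 131 and 116 CPM, below the 290, 378 and 289 CPM of those labelled 1 dpa (log2 difference 1.36 ± 0.125 SE, adjusted p = 3.70e-05). As for fosl2, the groups of jun did not overlap in any of the 3 batches and the calls held in every alternative run.

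The JunB genes junba and junbb encode paralogous Jun proteins, and JunB in mammals is often a weaker activator than c-Jun. At 4 dpa junba was not called, at 166 and 279 CPM at 0 dpa and 315 and 270 CPM at 4 dpa (log2 difference 0.29 ± 0.238 SE, adjusted p = 0.31). The 0 dpa replicates decided its value: it was -0.01 without replicate 1 (adjusted p = 0.971) and 0.72 without replicate 2 (adjusted p = 0.00124), and 0.78 with scaling by library size alone (adjusted p = 0.0026). In batch 3 junba had the largest rise of the set, from 65.5 CPM in wild type and 56.5 CPM in the deletion to 466 and 475 CPM at 2 dpa (log2 difference 2.93 ± 0.112 SE, adjusted p = 1.05e-08). Libraries of batch 2 labelled 0 dpa had 1354, 1400 and 994 CPM against 424, 450 and 410 CPM in those labelled 1 dpa (log2 difference -1.49 ± 0.133 SE, adjusted p = 3.97e-05).

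Levels of junbb overlapped at 4 dpa, with 342 and 561 CPM at 0 dpa and 356 and 227 CPM at 4 dpa. The difference was not called (log2 difference -0.74 ± 0.293 SE, adjusted p = 0.0627). It was called without replicate 1 at 0 dpa (-1.02, adjusted p = 0.038), without replicate 1 at 4 dpa (-1.08, adjusted p = 0.00831) and by DESeq2 (-0.73, adjusted p = 0.0049). At 2 dpa junbb rose from 91.7 CPM in wild type and 58.6 CPM in the deletion to 264 and 205 CPM (log2 difference 1.65 ± 0.111 SE, adjusted p = 5.37e-07). In batch 2 the 562, 615 and 345 CPM of libraries labelled 0 dpa lay just under the 636, 738 and 677 CPM of those labelled 1 dpa, a difference that was not called (0.49, SE 0.228, edgeR adjusted p = 0.0961). It was called without replicate 3 labelled 0 dpa (0.27, adjusted p = 0.011) and by DESeq2 (0.45, adjusted p = 0.01).

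The stress factor gene atf3, which in mammals is induced by injury in many tissues including cut nerves, fell at 4 dpa from 12.2 and 10.5 CPM to 3.78 and 2.499 CPM (log2 difference -1.96 ± 0.213 SE, adjusted p = 4.25e-05). At 2 dpa it had 13.2 CPM in wild type and 11.03 CPM in the deletion against 11.1 and 10.4 CPM at 0 dpa. These overlapped and were not called (log2 difference 0.15 ± 0.146 SE, adjusted p = 0.399). In batch 2 the libraries labelled 0 dpa had 56.3, 39.5 and 25.7 CPM, above the 10.7, 11.8 and 11.8 CPM of those labelled 1 dpa (log2 difference -1.76 ± 0.303 SE, adjusted p = 0.00256). Uninjured batch 1 fins, uninjured batch 3 fins and libraries labelled 1 dpa all lay between 10.4 and 12.2 CPM.

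Marker sums of cell types also moved in these comparisons, and in bulk fins they do not tell cell numbers from RNA per cell. The epidermal markers summed to 176198 to 220485 CPM at 0 dpa and 56720 to 62548 CPM at 4 dpa in batch 1, and the fibroblast markers to 6782 to 7117 and 48341 to 56739 CPM. The 9 osteoblast markers summed to 549 to 680.1 CPM at 0 dpa and 13877 to 15829 CPM at 4 dpa there. In batch 3 whole fins the epidermal sum went from 99543 to 117500.0 CPM at 0 dpa to 81633 to 86999 CPM at 2 dpa, and the fibroblast sum from 12817 to 14773 CPM to 36298 to 39038 CPM. The leukocyte sum of 14 markers was 4545 to 5796 CPM at 0 dpa and 1612 to 1663 CPM at 4 dpa in batch 1. Batch 3 whole fins had 3589 to 5179 CPM at 0 dpa and 933 to 1125 CPM at 2 dpa. In batch 2 the sum was 728.6 to 974.5 CPM in libraries labelled 0 dpa and 7344 to 8128 CPM in those labelled 1 dpa. Epidermal sums in batch 2 overlapped. The part of these marker sums in the AP-1 differences was not tested.

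The opposite movement of fosl2 and jun can be read within each library from their counts, which needs no scaling between libraries; the ratio also reflects transcript length and is compared only between libraries. This ratio was chosen after its values were seen. Fosl2 reads per jun read were 0.192 and 0.21 at 0 dpa and 0.863 and 0.986 at 4 dpa in batch 1. In batch 3 whole fins they were 0.256 in wild type and 0.295 in the deletion at 0 dpa and 5.7 and 5.24 at 2 dpa. Libraries labelled 0 dpa in batch 2 had 3.05, 3.11 and 3.19 and those labelled 1 dpa 0.147, 0.16 and 0.152. The 7 whole-fin libraries with a ratio of 0.863 or more were those at 2 dpa, at 4 dpa and labelled 0 dpa in batch 2, and the other 7 had 0.295 or less. Over the 14 whole-fin libraries fosl2 and jun had a Pearson r of -0.89 on log2(CPM + 1), the lowest of the 28 pairs of AP-1 genes, while fosl1a and atf3 had the highest (0.92). These correlations describe libraries that share groups and batches.

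**Figure D3:**
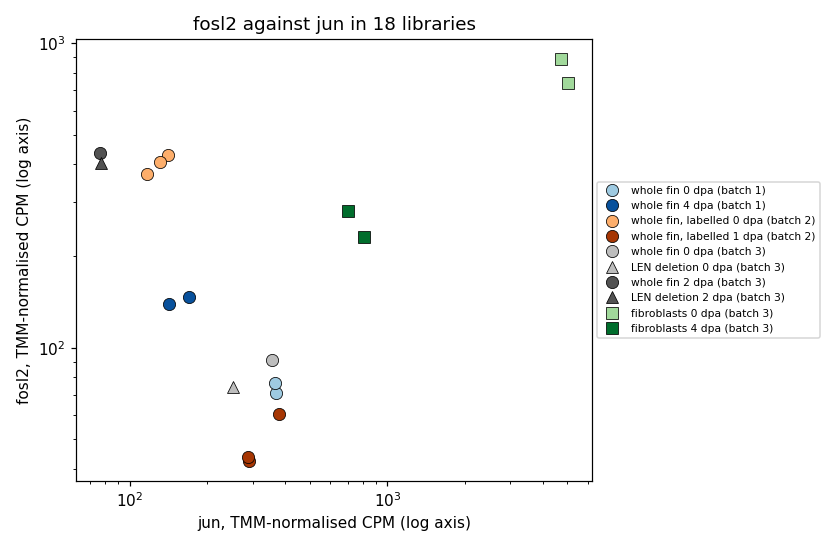
Levels of fosl2 against jun in the 18 libraries, both as TMM-normalised CPM on log axes; triangles are LEN deletion fins and squares sorted fibroblasts. Fins at 2 dpa and those labelled 0 dpa in batch 2 lie at the upper left (fosl2 371 to 436, jun 76.4 to 140 CPM), and uninjured fibroblasts lie at the upper right.

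Sorted uninjured fibroblasts carried far more AP-1 transcript than any whole fin. The 8 genes together took 3.01 and 3.18% of the gene counts of these libraries, 0.775 and 0.585% in fibroblasts at 4 dpa, and 0.0665 to 0.313% in whole fins. All 8 were higher in uninjured fibroblasts than in the uninjured whole fins of batch 1, where 65.6% of genes tested were called and 33.1% were higher. The fold ranged from 10.4 for fosl2 (log2 difference 3.39 ± 0.224 SE, adjusted p = 1.04e-05) to 139 for fosl1a (log2 difference 7.12 ± 0.353 SE, adjusted p = 6.19e-06). Another reference was the whole fins of the same batch, wild type and deletion pooled as 1 group. Against it, log2 fold changes of the 8 genes ran from 3.29 (fosl2) to 8.21 (fosl1a). The shares of genes called given above belong to the batch 1 reference. Compared with the batch 1 reference, values on the log2 scale moved from 4.69 to 7.45 for fosab, 4.79 to 6.72 for fosb, 4.50 to 6.44 for junba and 4.16 to 6.82 for junbb.

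Sorting, any difference in dissociation, and cell type cannot be told apart in that comparison. The 30 heat shock and chaperone genes found in the counts summed to 131330.0 and 183541 CPM in uninjured fibroblasts and 43794 and 47246 CPM at 4 dpa, against 9847 to 17141 CPM in whole fins. Of 29 such genes tested, 24 were higher and 2 lower in uninjured fibroblasts than in uninjured whole fins (median log2 fold change 3.73, median of all genes -0.02). The 44 other immediate early genes summed to 43762 to 54059 CPM in uninjured fibroblasts and 10339.7 to 11915 CPM at 4 dpa, against 2784 to 10619 CPM in whole fins, where the uninjured batch 1 fins (8221 to 10619 CPM) overlapped the fibroblasts at 4 dpa. Their part in the AP-1 levels was not tested.

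All 8 AP-1 genes were called lower in fibroblasts at 4 dpa than at 0 dpa. Of 12011 genes tested, 53.9% were called, 27.8% higher and 26.2% lower. The groups of each AP-1 gene did not overlap, but the share of all genes without overlap was not computed. The fall was largest for fosab, from 14438 and 17069.7 CPM to 1636 and 1203 CPM (log2 difference -3.36 ± 0.248 SE, adjusted p = 6.47e-06). The jun gene went from 4703 and 5034 CPM to 706 and 813 CPM (log2 difference -2.58 ± 0.184 SE, adjusted p = 5.57e-06). Uninjured fibroblasts had 1189 and 1087 CPM of fosl1a against 177 and 115 CPM at 4 dpa (log2 difference -2.85 ± 0.241 SE, adjusted p = 3.26e-05). Their fosb fell from 1469 and 1975 to 337 and 282 CPM (log2 fold change -2.37).

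Both JunB genes fell, junba from 5119 and 5554 to 1346 and 1143 CPM (log2 difference -1.99 ± 0.193 SE) and junbb from 8103 and 8953 to 2184 and 1704 CPM (-2.02, SE 0.213). The smallest fall was that of fosl2, from 887 and 740 CPM to 280 and 231 CPM (log2 difference -1.56 ± 0.181 SE, adjusted p = 8.27e-05), beside atf3, from 882 and 952 CPM to 319 and 231 CPM (-1.63, SE 0.197). Each of the 8 calls held in every alternative run for this comparison. The heat shock list moved with them, with 16 of 30 genes lower and 4 higher at 4 dpa (median log2 fold change -0.46, median of all genes -0.00). Epidermal markers were lower as well in 12 of 16 cases, their sum going from 23171 and 47761 CPM to 7889 and 8395 CPM. Of the nerve and glia markers 7 of 8 were lower (median log2 fold change -1.45), and of the erythrocyte markers 4 of 6 were higher (median 3.29), their sum going from 6.29 to 8.68 CPM at 0 dpa to 24.9 to 27.2 CPM at 4 dpa. The part of these lists in the AP-1 fall was not tested.

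At 4 dpa all 8 genes were still higher in fibroblasts than in the whole fins of batch 1, against 75.4% of genes called, 36.8% higher and 38.5% lower. No whole fin of batch 3 was taken at 4 dpa among these libraries, so batch, sort and cell type cannot be told apart here, and at 0 dpa the choice of reference batch moved the fosab value by 6.74-fold. Levels were 129-fold higher for fosb (log2 difference 7.01 ± 0.391 SE, adjusted p = 4.90e-05), 102-fold for fosl1a, 89.2-fold for atf3 and 1.82-fold for fosl2 (log2 difference 0.86 ± 0.118 SE). The whole-fin library replicate 1 at 4 dpa decided the size for fosab and fosb, with log2 fold changes of 4.73 and 7.73 without it against 3.98 and 7.01 with it. The fosab call was lost without fibroblast replicate 1 (3.74, edgeR adjusted p = 0.0754). Fibroblasts at 4 dpa had 256 ± 34.8 CPM of fosl2 (SD, n = 2), below the whole fins at 2 dpa and those labelled 0 dpa in batch 2.

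Responses were then compared as differences of fold changes in joint fits. These comparisons share libraries with one another and with those above, the uninjured batch 1 fins entering all of them. Between 4 and 0 dpa, fibroblasts and whole fins differed for 5 of the 8 genes, where 36.3% of 12442 genes did, 18.8% with a higher and 17.4% with a lower difference. The difference was negative for fosl2 (difference of log2 fold changes -2.38, SE 0.234, edgeR adjusted p = 4.82e-05), which rose in whole fins, for junba (-2.25, SE 0.345, adjusted p = 0.000642), for jun (-1.20, adjusted p = 0.0026) and for junbb (-1.25, adjusted p = 0.0355). It was positive for fosb, which fell less in fibroblasts (2.36, SE 0.497, edgeR adjusted p = 0.00734). Without whole-fin replicate 1 at 4 dpa the fosb difference was 3.10, and without whole-fin replicate 2 at 0 dpa those of junba and junbb were -2.86 and -1.84. The junbb call was lost without whole-fin replicate 1 at 0 dpa (-0.93, adjusted p = 0.0912), whole-fin replicate 1 at 4 dpa (-0.91, 0.147) and fibroblast replicate 1 (-1.47, 0.0572) or 2 (-1.06, 0.138) at 4 dpa, and the fosb call in 1 fit of all 18 libraries (2.12, 0.114). For fosab (-0.57, SE 0.53), fosl1a (-0.30, SE 0.456) and atf3 (0.37, SE 0.311) no difference was called.

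The 2 dpa and 4 dpa responses of whole fins, each against the 0 dpa fins of its own batch, differed for 7 of 8 genes, where 21.3% of 12175 genes did, 8.72% with a higher and 12.6% with a lower difference. The 2 dpa response exceeded the 4 dpa response for 6 genes, with the largest difference for fosb (4.96, SE 0.843, edgeR adjusted p = 0.0187) and fosl1a (4.17, SE 0.398, adjusted p = 9.79e-05), followed by junba (2.59), junbb (2.34), atf3 (2.06) and fosl2 (1.43, SE 0.158, adjusted p = 0.000133). The jun gene fell more at 2 dpa (-0.69, SE 0.199, edgeR adjusted p = 0.0304). Time and batch cannot be told apart here, and uninjured levels differed between batches, with batch 1 means of 576 CPM for fosab, 222 CPM for junba and 452 CPM for junbb against 95.3, 65.5 and 91.7 CPM in the batch 3 wild-type fin. The batch 3 arm had 1 library per genotype and time, so the p-values of this comparison rest largely on the spread between batch 1 pools. For fosb and atf3 the 2 dpa response itself was not called (0.33 and 0.15), whereas both fell at 4 dpa (-4.69 and -1.96). Calls were lost for fosb without replicate 1 (5.20, adjusted p = 0.0716) or 2 (4.72, 0.0991) at 0 dpa of batch 1 and for jun without replicate 2 at 0 dpa (-0.68, 0.0513) or replicate 1 at 4 dpa (-0.55, 0.167); without the latter fosb was 5.71.

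The batch 2 difference, taken as labelled, was set against the 4 dpa response of batch 1 in the same way. It was higher for fosab (5.31), fosb (5.91), jun (2.55) and junbb (1.08, edgeR adjusted p = 0.0463), and lower for fosl2 (-3.98) and junba (-1.93), 6 of 8 genes where 81.0% of all genes differed, 39.0% higher and 42.0% lower. With the groups of batch 2 exchanged, fosl1a (4.24, edgeR adjusted p = 0.00692), atf3 (3.68, 0.000241), fosb (3.28, 0.0397), fosl2 (2.08, 7.04e-06) and junba (1.15, 0.00935) exceeded the 4 dpa response, while fosab (-0.00), jun (-0.07) and junbb (0.20) were not called. The junbb call as labelled was lost without an expression filter (1.05, adjusted p = 0.0683) and without 6 single libraries, its values then lying between 0.67 and 1.15. Without replicate 1 at 4 dpa fosab was 6.13 and fosb 6.70, and without replicate 1 labelled 0 dpa fosb was 6.90 and fosl1a 1.28 (adjusted p = 0.0492), against 0.59 with it.

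The LEN deletion was represented by 1 library per time point, so its differences have no replicate check and intervals cover counting error only. At 0 dpa 1 of 8 AP-1 genes differed by at least 2-fold, where 2.44% of 11191 genes with at least 40 reads in the pair did. This was fosb, at 10.1 CPM in the deletion and 22.6 CPM in wild type, a ratio of 0.449 (95% interval 0.392 to 0.514). The other genes were also below 1 at 0 dpa, from 0.626 (fosl1a), 0.639 (junbb) and 0.708 (jun) up to 0.936 (atf3, 0.800 to 1.09). At 2 dpa 3 of 8 did, where 0.850% of 11053 genes did, all lower in the deletion: fosb (ratio 0.132, 0.114 to 0.153), fosab (0.316, 0.288 to 0.346) and fosl1a (0.433, 0.374 to 0.501). The other 5 had ratios of 0.779 (junbb) to 1.02 (junba), with fosl2 at 0.927 and jun at 1.01.

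Replicate pools differed unequally between groups for the 3 genes past 2-fold at 2 dpa. Among the libraries labelled 0 dpa in batch 2, the highest level exceeded the lowest by 7.12-fold for fosb, 3.66-fold for fosl1a and 3.55-fold for fosab, where the median gene differed by 1.12-fold. At 4 dpa in batch 1 the ratio was 2.44 for fosab and 2.39 for fosb, larger than for 99.9% of 9030 genes, against a median of 1.08. Those 9030 genes averaged at least 5 CPM in the group, whereas fosb averaged 2.46 CPM and so has more counting noise than most of them. Ratios of fosl2 and jun stayed at or below 1.42 in all 6 replicated groups. In the other 4 replicated groups the ratio was 1.195 to 1.40 for fosb and 1.18 to 1.36 for fosab. The ratios of groups with 3 libraries take the extremes of 3 and are not on the same footing as a ratio of 2 libraries, and whether the deletion differs beyond the spread between pools was not tested.

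**Figure D4:**
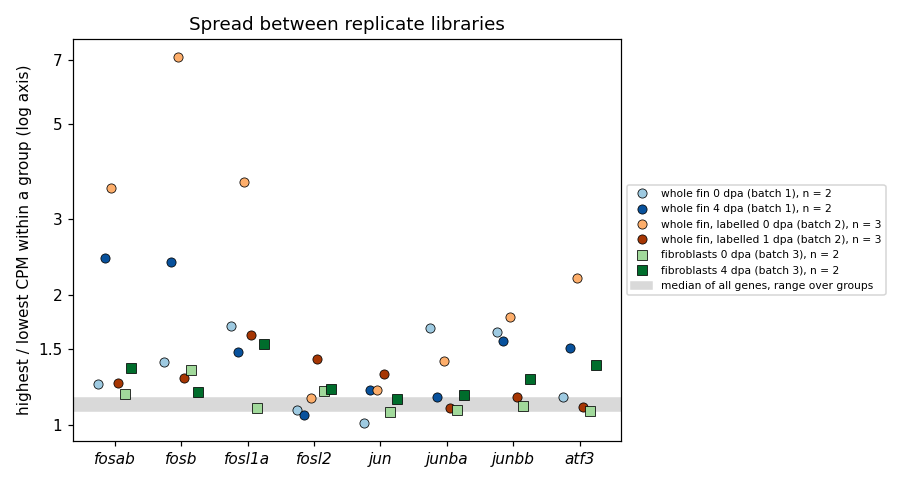
Highest over lowest CPM among the replicate libraries of each group (log axis), for each AP-1 gene; the grey band spans the groups' medians over all genes with at least 5 CPM. The values of fosab, fosb and fosl1a reach 3.55, 7.12 and 3.66 in the libraries labelled 0 dpa of batch 2, while fosl2 and jun stay at or below 1.42.

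Ordered by group mean, the uninjured fibroblasts had the highest level of each of the 8 genes, between 1.87-fold (fosl2) and 11.1-fold (fosab) above the next group. Fibroblasts at 4 dpa came next for 6 genes, overlapping the libraries labelled 1 dpa in fosab. For junba they were level with the libraries labelled 0 dpa in batch 2 (1244 ± 143 and 1249 ± 222 CPM, overlapping), and for fosl2 they stood below those libraries and both 2 dpa fins. At the low end, fins at 4 dpa had the lowest fosb, fosl1a and atf3, the 2 dpa deletion fin the lowest fosab, the 2 dpa fins the lowest jun, the libraries labelled 1 dpa the lowest fosl2 and the uninjured deletion fin the lowest junba and junbb. For fosab, the uninjured batch 3 fins had 1 library per genotype and were not tested against the fins at 4 dpa. Their 95.3 and 84.0 CPM lay within the range of the latter (91.7 ± 54.3 CPM, n = 2). Likewise the uninjured batch 1 fins and those labelled 1 dpa overlapped in fosb (59.0 ± 13.9 and 56.0 ± 8.22 CPM), as did junbb at 0 and 4 dpa of batch 1.

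In each list below the shares of all genes called, for comparison, are 32.5% higher and 33.0% lower at 4 dpa, 31.2% and 31.1% at 2 dpa, 42.0% and 39.9% in batch 2, and 27.8% and 26.2% in fibroblasts. Of 25 other AP-1, Maf and Atf/Creb family genes tested in batch 1, 5 were higher and 13 lower at 4 dpa (median log2 fold change -0.40, median of all genes -0.01); with scaling by library size alone the split was 8 and 8. The Jun partner gene jdp2b, a repressor of AP-1 in mammals, fell from 163 ± 58.8 to 12.6 ± 8.27 CPM (log2 fold change -3.80, edgeR adjusted p = 0.0108), and the small Maf gene mafk fell from 12.0 to 0.935 CPM (-3.78). Higher at 4 dpa were mafbb (1.29) and atf5a (1.099). At 2 dpa 6 of 24 were higher and 8 lower (median 0.05), near the shares of all genes, and 7 and 7 with library size alone. Up were atf5a (1.72) and the Creb family gene cremb (1.25, from 1.40 to 3.36 CPM). Down were mafgb (-1.66, from 1.00 to 0.302 CPM) and the oxidative stress factor gene nfe2l2a (-1.39). In batch 2, 9 of 26 were higher and 10 lower under the 1 dpa label (median 0.06; jdp2b 3.02, bach1b 2.13, cremb -2.12, atf5a -2.09), again near the shares of all genes. In fibroblasts 4 of 27 were higher and 14 lower at 4 dpa (median -0.57). The largest called falls were those of batf and maff (both -1.92), batf from 0.767 to 0.186 CPM and maff from 840 to 206 CPM. Up were mafa (1.55, from 0.887 to 2.38 CPM) and bach1a (0.70, from 11.1 to 16.7 CPM). The split there was 7 and 9 with library size alone.

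Of 32 kinase, phosphatase and serum response genes that control AP-1 in mammals, 2 were higher and 19 lower at 4 dpa in batch 1 (median log2 fold change -0.44), against 32.5% and 33.0% of all genes. With library size alone the split was 7 and 7, so its direction depends on the scaling. Lower genes were the phosphatase genes dusp1 (-2.32) and dusp5 (-1.86), which switch off MAP kinases. Higher ones were elk3 (0.54) and the Jun kinase gene mapk10 (1.97), the latter going from 0.163 to only 0.731 CPM. The Jun kinase genes mapk8a (-1.03) and mapk8b (-0.49) were lower. At 2 dpa 5 of 32 rose and 15 fell (median -0.34), with dusp4 (1.84) and dusp5 (0.88) up and map3k5 (-1.35) and mkl1b (-1.27) down. In batch 2, 14 were higher and 8 lower under the 1 dpa label (median 0.07). Higher were dusp1 (2.41) and map3k5 (2.29), and lower dusp4 (-1.89) and mapk10 (-4.02). The level of mapk10 was 1.28 CPM under the 0 dpa label and 0.0725 CPM under the 1 dpa label. Fibroblasts had 2 higher and 11 lower of 32, against 27.8% and 26.2% of all genes (median -0.29; 3 and 6 with library size alone), with mapk11 (1.61) and dusp4 (1.44) up and map2k1 (-1.73) and srfb (-1.58) down.

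Genes known as AP-1 targets in mammals split in each comparison. At 4 dpa 14 of 30 rose and 11 fell, against 32.5% and 33.0% of all genes (median log2 fold change 0.60), with lepb (6.66) and the matrix protease gene mmp14b (2.98) up and the prostaglandin synthase gene ptgs2b (-3.05) and ets2 (-2.42) down. At 2 dpa 20 of 29 rose and 6 fell, against 31.2% and 31.1% (median 1.19), led by the fibronectin genes fn1b (4.37) and fn1a (3.44), while the intermediate filament gene vim (-2.19) and the protease gene plaub (-1.88) fell. In batch 2, 6 of 30 were higher and 20 lower under the 1 dpa label, against 42.0% and 39.9% (median -0.80; vim 2.67, plaub 2.12, lepb -10.59, fn1b -6.27). In fibroblasts 6 of 30 rose and 16 fell at 4 dpa, against 27.8% and 26.2% (median -0.55; 7 and 9 with library size alone), with the collagenase gene mmp13a (2.35) and mmp14b (1.65) up and spp1 (-2.94) and vim (-2.79) down.

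Other immediate early genes fell with fosab, fosb and jun in batch 1, 34 of 41 being lower and 4 higher at 4 dpa (median log2 fold change -1.86), against 33.0% and 32.5% of all genes. The Krüppel-like factor genes klf4 (-5.16) and klf9 (-4.68) fell most, while cyr61l1 (2.51) and the cytokine feedback gene socs3b (1.18) rose. At 2 dpa 24 of 40 fell and 7 rose, against 31.1% and 31.2% (median -0.81), with klf9 (-3.62) and the clock gene per1a (-3.04) down and socs3b (1.69) and myca (1.49) up. Libraries labelled 1 dpa in batch 2 had 29 of 41 higher and 3 lower, against 42.0% and 39.9% (median 1.03; nr4a1 4.13, nr4a2b 3.80, socs3b -0.85, ier5l -0.78). In fibroblasts 37 of 42 fell and 1, gadd45ab (1.103), rose at 4 dpa, against 26.2% and 27.8% (median -1.77), with mycb (-4.26) and klf2a (-3.41) falling most. In the heat shock list of whole fins, 13 of 28 were higher and 7 lower at 4 dpa in batch 1, 11 and 8 at 2 dpa, which is near the 31.2% and 31.1% of all genes, and 9 and 17 in the libraries labelled 1 dpa.

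The genes whose pattern over the 18 libraries was most like each AP-1 gene were looked up among 8386 genes averaging 5 CPM or more, by Pearson r of log2(CPM + 1). They were ier5 (0.97), egr1 (0.97) and dusp1 (0.97) for fosab, with r of 0.95 for each in the 14 whole fins alone. For fosb they were csrnp1b (0.97), tob1b (0.96) and ppp1r15a (0.96). Nearest to fosl1a were efna1b (0.98), sdc4 (0.97) and dusp5 (0.96), and to atf3 sdc4 (0.98), tmem115 (0.97) and anxa11a (0.97). The fosl2 pattern was closest to mamdc2a, smtnl and elovl1b (all 0.97; 0.98, 0.96 and 0.97 in whole fins), and that of jun to abi2a (0.99), fhl2a (0.98) and cry3 (0.98). For junba they were sat1a.2 (0.94), socs3b (0.93) and atf7a (0.92), and for junbb gadd45bb (0.96), dusp2 (0.95) and dusp5 (0.95). For the AP-1 genes other than fosab and fosl2, r in the whole fins alone was 0.81 (fosl1a with dusp5) to 0.93 (junba with sat1a.2). The gap between fibroblast and whole-fin libraries weighs heavily in the values over 18 libraries. All of these values are descriptions over libraries that share groups.

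In the zebrafish assembly GRCz12tu, 2 of the AP-1 genes lie beside another family member, fosab next to batf and atf3 next to batf3. Both neighbours stayed low, batf at 0.122 to 1.03 CPM and batf3 at 0.18 to 1.55 CPM over the group means, including the uninjured fibroblasts (0.767 and 0.256 CPM). In those fibroblasts fosab averaged 15754 ± 1861 CPM and atf3 917 ± 49.4 CPM (SD, n = 2). The JunB genes lie next to other kinds of genes, junba beside the peroxiredoxin gene prdx2 and junbb beside hook2. In uninjured fibroblasts, where junba and junbb were highest, prdx2 (76.2 CPM) was at its lowest, and hook2 (1.39 CPM) was higher only than in fibroblasts at 4 dpa (0.385 CPM). By contrast, capn12 beside fosb and ccdc85b beside fosl1a had their highest group means in uninjured fibroblasts (323 and 106 CPM). Fibroblasts at 4 dpa had 136 and 85.8 CPM of them, and whole-fin groups at most 83.4 and 63.5 CPM. The other neighbours found in the counts had their highest group mean elsewhere.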

How the data were processed

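The authors deposited 1 table of raw counts of reads per gene for each stranded mRNA-seq library. For these libraries the submitters' processing notes list HTSeq 1.6.1, TopHat2 2.1.1 and Trim Galore, and the build danRer10, without their order. Annotation and strand setting: not given in the sources used here. Therefore overlapping genes and near copies are uncertain. Reads on no gene (26.5 to 39.0% of reads) stayed out. The 18 accessibility samples were not analysed here.

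From the counts, edgeR 4.0.16 in R 4.3.3 gave quasi-likelihood F tests (robust, TMM, its expression filter, two-sided, Benjamini-Hochberg over all genes tested, called at an adjusted p under 0.05). Each comparison used its own libraries; the 2 dpa comparison had a genotype term, leaving 1 residual degree of freedom. CPM use TMM factors of all 18 libraries. Where a mean ± SD carries no n, it is the number of libraries stated for that group above, 2 or 3. Differences of responses were contrasts in 1 fit. A plain group fit of this kind was tried on simulated counts for the 4 dpa, batch 2 and fibroblast comparisons, with the same dispersion for all genes. The genotype term, the differences of responses and the LEN intervals were not tried in this way. LEN ratios have exact conditional 95% intervals. Alternatives were DESeq2 1.42.0 size factors or test, library size alone, no filter, 1 fit of all libraries, leaving out each replicate and the replicate block; for single comparisons no genotype term, the batch 3 reference and exchanged batch 2 groups. Of 337 list genes 272 were found, 8 by another symbol. All AP-1 genes are described. Of each list other than the heat shock genes and the cell type markers, the 2 largest rises and 2 largest falls among called genes are named. Clone identifiers are left out. The Jun kinase genes mapk8a and mapk8b are named in addition at 4 dpa. The AP-1 genes and lists were chosen with earlier results of these data known.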

Additional observations from a re-analysis of the deposited data

Results flagged for a closer look

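Responses that differed between groups by the test of the difference itself (edgeR, adjusted p under 0.05) are given as differences of log2 fold changes. Between fibroblasts and whole fins at 4 against 0 dpa they were fosb 2.36, fosl2 -2.38, jun -1.20, junba -2.25 and junbb -1.25. For the batch 2 difference as labelled minus the 4 dpa response of batch 1 they were fosab 5.31, fosb 5.91, fosl2 -3.98, jun 2.55, junba -1.93 and junbb 1.08. These values depend on the labels, which the names given to the deposited data reverse. With the groups exchanged, fosab was -0.0017, fosb 3.28, fosl2 2.08, jun -0.072, junba 1.15 and junbb 0.198. Not flagged as labelled, fosl1a and atf3 were then 4.24 and 3.68. For the 2 dpa response of batch 3 minus the 4 dpa response of batch 1 they were fosb 4.96, fosl1a 4.17, fosl2 1.43, jun -0.69, junba 2.59, junbb 2.34 and atf3 2.06. Tissue or time and batch cannot be told apart in these comparisons. In the last of them the 2 dpa arm had 1 library per genotype and time.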

How the results depend on the processing

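Across the alternatives, 712 recomputed fold changes of AP-1 genes kept their direction and their side of the threshold, 25 lost and 12 gained a call, and 11 changed sign. The sign changes were those of junba at 4 dpa in whole fins without replicate 1 at 0 dpa (-0.0055, range over left-out replicates up to 0.72), of fosl1a (-0.93 to 0.029) and fosab (-1.07 to 0.19) in the difference between fibroblasts and whole fins over left-out replicates, and of atf3 in the batch 2 minus batch 1 difference (-0.14 with library size alone, -0.18 to 0.41 over left-out replicates). With the batch 2 groups exchanged fosab (-0.0017), fosl2 (2.08), jun (-0.072) and junba (1.15) turned, and 6381 genes were called against 9939. Leaving out replicates gave 3827 to 7525 called genes in fibroblasts, 2971 to 5167 in their difference from whole fins and 1349 to 3175 in the 2 dpa difference. Library size alone moved the median log2 fold change of all genes to 0.44 at 4 dpa (72.7% of calls higher against 49.7%), 0.32 in fibroblasts (67.7 against 51.5%), 0.16 in batch 2, -0.12 and -0.16 for fibroblasts against whole fins at 0 and 4 dpa, and -0.11 (38.9 against 52.0%), -0.27 and -0.44 (10.8 against 40.9%) in the differences; directions are relative to TMM scaling, and the cause was not tested. Replicates share only a number: deviations of same-numbered libraries correlated at 0.0481 in batch 1, 0.0689 in fibroblasts and -0.0758 to 0.0317 in batch 2. No library of batch 2 correlated best with its own number. With the replicate block 7757, 6475 and 9522 genes were called, against 7805, 6477 and 9711, and the number of AP-1 genes called was the same. Leaving out a replicate was not run at 2 dpa, with 1 library per genotype and time. With 2 or 3 pools per group, small differences of uneven genes are not resolved. Besides fosab, fosb and fosl1a, atf3 was uneven among the libraries labelled 0 dpa of batch 2 (highest over lowest 2.19). So were junba (1.68) and junbb (1.64) among the 0 dpa libraries of batch 1.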
